A study of Rattus norvegicus with 16 samples.

Results

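The genes described here are 10 members of the granin and prohormone-processing machinery of rat adrenal medulla, chosen by name: Chga, Chgb, Scg2, Scg3, Vgf, Scg5, Pcsk2, Cpe, Pam and Ptprn. Every probe set whose only symbol in the platform annotation is one of these names was taken, which gave 12 of the 31042 probe sets that are not controls, or 10 of 14217 genes. Pam had 3 probe sets and each of the other 9 genes had 1. RNA of 16 tissue samples was measured on 1 Affymetrix array each. The mutant tissues came from rats of a mixed Sprague–Dawley white eye/Wistar–Kyoto strain that carry a mutation of p27Kip1. The other tissues came from wild-type rats of that strain. p27Kip1 is an inhibitor of cyclin-dependent kinases whose loss gives the mutant rats (MENX) tumours in several endocrine glands.

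The tumour group was 4 pheochromocytomas, 3 from mutant rats of 8 months labelled female and 1, replicate 4, from a mutant of 9 months labelled male. Its comparison group, called old wild type here, was 2 pools of wild-type medulla: pool 1 held 2 animals of 10 months labelled female, and pool 2 held animals of 12 and 17 months labelled male. The hyperplasia group was 8 adrenal hyperplasias of mutants of 2 months, replicates 1 to 4 labelled female and 5 to 8 labelled male. Its comparison group, young wild type, was 2 pools of wild-type medulla of 2 months, pool 1 of 2 animals labelled male and pool 2 of 3 animals labelled female. All groups share the mixed strain. The old wild-type animals were older than the tumour-bearing ones, and a pool evens out differences between its animals.

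Chromaffin cells of the medulla store catecholamines together with proteins and peptides in dense-core granules. Granins are acidic proteins that aggregate in the secretory pathway and are packed into these granules, and several are cut into active peptides. Prohormone convertases cut granins and other precursors at basic residues, carboxypeptidase E trims the exposed basic residues and peptidylglycine alpha-amidating monooxygenase amidates the ends. Chromogranin A in blood is used as a marker of pheochromocytoma.

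Several facts about the arrays bear on the results. The level of Xist, which is transcribed from the inactive X chromosome, went against the labelled sex on 6 arrays: hyperplasia replicates 1, 2, 5 and 6 and both young wild-type pools. Sex was therefore no term in the model, and labelled sex and the Xist level were used as alternatives. The 3′ minus 5′ log2 difference of the hexokinase control probe sets, a sign of RNA or labelling quality, was 2.16 to 3.30 in pheochromocytoma, 2.29 to 2.92 in old wild type. Hyperplasias had 1.21 to 1.63 and young wild-type pools 1.07 to 1.18. It was thus higher on every array of the older groups than on every array of the younger ones. Of 10 measured adrenal cortex markers, 8 fell in pheochromocytoma and 3 fell in hyperplasia against their own wild types. Among all probe sets 5.95% fell and 8.31% rose in pheochromocytoma, and 3.08% fell and 4.32% rose in hyperplasia. The mean log2 value of the cortex markers was 10.94 to 12.39 in pheochromocytoma and 12.73 to 13.03 in old wild type. It was 11.06 to 11.91 for the hyperplasias and 12.31 to 12.41 for the young wild-type pools, so cortex transcripts were present in every group. Of 10 measured chromaffin markers, 5 rose in pheochromocytoma (Ddc, Phox2a, Slc18a1, Gata3 and Hand2), 2 rose in hyperplasia (Slc6a2 and Phox2a), and none fell in either. The tissue therefore held the chromaffin transcripts of its label, with a mean log2 value of 11.85 to 12.10 in pheochromocytoma, 11.26 to 11.81 in old wild type, 12.37 to 12.52 for the hyperplasias and 12.05 to 12.19 for the young wild-type pools. In such bulk tissue fewer cells of a type and less RNA per cell cannot be told apart. The part of cortex tissue in the results below was not tested beyond a fit that adds the cortex marker mean as a term. These means did not overlap between either mutant group and its wild type, nor between old and young wild type. Such a fit cannot separate cortex content from those group differences.

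Levels below are log2 values of the deposited robust multi-array average (RMA), and differences are log2 differences ± standard error from 1 limma fit over all 16 arrays. A difference passed the test where its p-value, adjusted by Benjamini-Hochberg over all 31042 probe sets, was under 0.05. The labels do not call the young wild-type pools biological replicates. Pool 1 of young wild type held 2 animals and had an Xist level of 12.14. Pool 2 held 3 animals and had an Xist level of 3.21, so the pools were not the same RNA measured again. The p-values measure the spread between arrays within all groups of the fit. How much of that spread is technical was not tested.

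**Figure D1:**
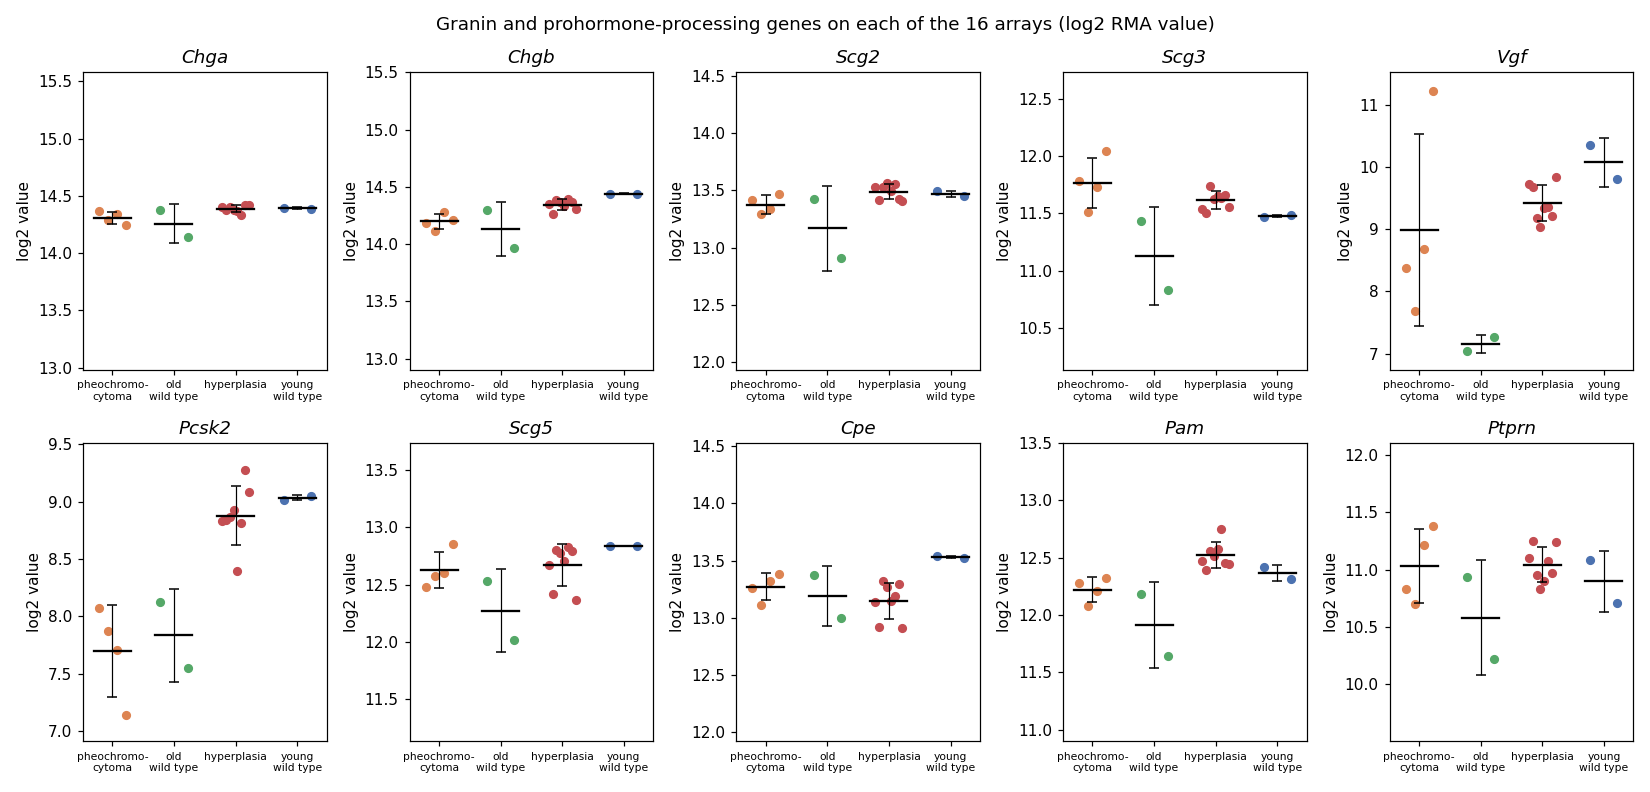
Log2 RMA value (y axis) of the brightest probe set of each of the 10 genes on each array, by group (x axis). Dots are arrays, lines group means and bars SD (n = 4, 2, 8 and 2 from left to right). All panels span the same number of log2 units except Vgf, whose span is wider. Pcsk2 is lower in both older groups than in both younger ones, and Vgf spreads from 7.69 to 11.23 among the 4 pheochromocytomas.

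Chromogranins A and B, the bulk granins of the chromaffin granule, did not pass the test in any comparison and spread little between arrays. Chga had log2 values of 14.37, 14.29, 14.34 and 14.24 in pheochromocytoma, against 14.38 and 14.14 in old wild type. In hyperplasia its lowest, median and highest log2 values were 14.33, 14.39 and 14.42, against 14.40 and 14.39 in young wild type. The groups of each pair overlapped. The log2 difference was 0.05 ± 0.09 in pheochromocytoma (95% interval -0.14 to 0.24, adjusted p = 0.743) and 0.00 ± 0.08 in hyperplasia (95% interval -0.17 to 0.17, adjusted p = 0.989). Its spread within groups lay at percentile 0.309 of all probe sets. Chga was never more than 0.27 log2 units below the brightest probe set of its array; whether the signal there was saturated was not tested.

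Chgb had log2 values of 14.19, 14.12, 14.28 and 14.21 in pheochromocytoma, against 14.30 and 13.96 in old wild type. In hyperplasia its lowest, median and highest log2 values were 14.26, 14.36 and 14.40, all below the 14.44 of both young wild-type pools. The log2 difference was 0.07 ± 0.10 in pheochromocytoma (adjusted p = 0.690) and -0.09 ± 0.09 in hyperplasia (adjusted p = 0.592). Both old wild-type pools lay below both young ones. The log2 difference of old minus young wild type was -0.31 ± 0.11 (adjusted p = 0.0583) and passed under 5 of 28 alternatives. Chgb was likewise within 0.44 log2 units of the brightest probe set on every array.

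Scg2 codes for secretogranin II, the precursor of the peptide secretoneurin. Its log2 values were 13.41, 13.29, 13.33 and 13.47 in pheochromocytoma, against 13.43 and 12.91 in old wild type. The 8 hyperplasias had a lowest, median and highest of 13.40, 13.51 and 13.56, against 13.49 and 13.45 in young wild type. Old wild-type pool 2 stood below all other arrays, and each mutant group overlapped its own wild type. Both old wild-type pools lay below both young ones, at a log2 difference of -0.30 ± 0.14 that did not pass (adjusted p = 0.127). Neither the log2 difference in pheochromocytoma (0.21 ± 0.12, 95% interval -0.05 to 0.46, adjusted p = 0.264) nor that in hyperplasia (0.02 ± 0.11, 95% interval -0.21 to 0.25, adjusted p = 0.947) passed the test.

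Scg3, secretogranin III, which binds chromogranin A and the cholesterol-rich granule membrane, was the 1 gene of the 10 that passed in pheochromocytoma against old wild type. Its log2 values were 11.78, 11.51, 11.73 and 12.04 in pheochromocytoma, against 11.43 and 10.83 in old wild type. All 4 tumours lay above both pools, tumour replicate 2 by a narrow margin. The log2 difference was 0.64 ± 0.15, or 1.55-fold (95% interval of the fold 1.24 to 1.94, adjusted p = 0.0117). In hyperplasia the lowest, median and highest log2 values were 11.50, 11.63 and 11.74, all above the 11.47 and 11.48 of young wild type, but the log2 difference of 0.14 ± 0.14 did not pass (adjusted p = 0.608). The effects in tumour and hyperplasia differed by 0.50 ± 0.21 log2 units, which did not pass either (adjusted p = 0.386).

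The Scg3 call rested on old wild-type pool 2. Without that pool the log2 difference between pheochromocytoma and old wild type was 0.33 (adjusted p = 0.314). With the cortex marker mean added to the fit it was 0.36 (adjusted p = 0.476). The cortex marker means of these groups did not overlap, so that fit cannot separate cortex content from the tumour difference. Pool 2 had the highest cortex marker mean of all 16 arrays, 13.03, and the lowest chromaffin marker mean, 11.26. It was also the lowest of all 16 arrays for 7 of the 10 genes, namely Chga, Chgb, Scg2, Scg3, Scg5, Pam and Ptprn.

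Vgf, a granin-like precursor first found as a transcript induced by nerve growth factor in a rat pheochromocytoma line, varied more between arrays than any other of the 10 genes. Its spread within groups lay at percentile 99.6 of all probe sets. The promoter windows of Vgf and Scg2 are shown because these were the 2 of the 9 members with a window that hold the full cyclic AMP response element TGACGTCA, a binding sequence of the CREB family. Chga had no window in the promoter set used and was not searched. The windows run from 250 bases before the annotated start to 50 after it (RefSeq, GRCr8). That of Vgf is chr12:25276971-25277270 on the minus strand, and that of Scg2 is chr9:88256817-88257116 on the minus strand. Each is written 5′ to 3′ on the strand of the gene. Capitals mark TGACGTCA and, in Vgf, the overlapping TATAAA matches of both strands.
Vgf: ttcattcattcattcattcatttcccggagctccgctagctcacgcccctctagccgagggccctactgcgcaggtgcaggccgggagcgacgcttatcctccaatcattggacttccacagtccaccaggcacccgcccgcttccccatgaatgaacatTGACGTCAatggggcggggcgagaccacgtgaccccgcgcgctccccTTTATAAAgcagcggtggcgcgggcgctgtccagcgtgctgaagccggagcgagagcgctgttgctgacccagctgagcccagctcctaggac
Scg2: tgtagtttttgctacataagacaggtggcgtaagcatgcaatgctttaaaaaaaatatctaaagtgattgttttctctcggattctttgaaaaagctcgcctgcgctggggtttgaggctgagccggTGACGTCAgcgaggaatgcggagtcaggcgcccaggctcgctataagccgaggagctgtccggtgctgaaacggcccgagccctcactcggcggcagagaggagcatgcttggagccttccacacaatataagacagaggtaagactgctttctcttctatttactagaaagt
The element starts at position -90 in Vgf and at position -123 in Scg2, counted from the start site. Of 33469 rat promoter windows of the same length, 612 (1.83%) hold TGACGTCA on either strand. The shorter TGACG, which lies inside it, occurs in 8 of the 9 member windows, all but that of Chgb, and in 21.2% of all windows. TATAAA was found in Vgf alone of the 9 and in 14.2% of all windows. CCAAT, found in Scg3, Vgf and Pcsk2, is in 37.5% of all windows. A match describes the letters of the window and shows no binding. Vgf and Scg2 share the element, while their spreads within groups lay far apart, at percentiles 99.6 and 15.3 of all probe sets.

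The log2 values of Vgf were 8.39, 7.69, 8.68 and 11.23 in pheochromocytoma, against 7.05 and 7.26 in old wild type. All 4 tumours were above both pools, and replicate 4 stood far above the other 3. The log2 difference was 1.84 ± 0.62, or 3.58-fold (95% interval of the fold 1.45 to 8.86), which narrowly missed the threshold (adjusted p = 0.0564). Without tumour replicate 4 the log2 difference was 1.10 and passed (adjusted p = 0.0225). That tumour had the highest log2 value of all 16 arrays for Vgf, Scg3, Scg5 and Ptprn, the lowest for Pcsk2, and the lowest cortex marker mean, 10.94. With the cortex marker mean, which did not overlap between these groups, added to the fit, the log2 difference of Vgf was 0.51 and did not pass. It passed under 6 of 28 alternatives.

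In hyperplasia the lowest, median and highest log2 values of Vgf were 9.04, 9.36 and 9.85, against 10.36 and 9.80 in young wild type. The groups overlapped, and the log2 difference of -0.65 ± 0.56 did not pass (95% interval -1.85 to 0.54, adjusted p = 0.538). The effect in tumours minus that in hyperplasia was 2.50 ± 0.83 log2 units, the largest of the 10 genes, with an adjusted p of 0.290. The largest group difference of Vgf was between the wild types, where it fell by 2.93 ± 0.71 log2 units in old against young wild type, or 7.61-fold (adjusted p = 0.00743). Without young wild-type pool 1 that log2 difference was -2.65 and did not pass (adjusted p = 0.0600). Pheochromocytoma minus hyperplasia was -0.43 ± 0.44 log2 units (adjusted p = 0.461) and, without tumour replicate 4, -1.18 (adjusted p = 0.000417).

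Pcsk2 codes for prohormone convertase 2, which cuts precursors inside the granule. Its promoter window, chr3:151333688-151333987 on the plus strand (RefSeq, GRCr8), is shown because Pcsk2 had the lowest adjusted p of the 10 genes between older and younger tissue, and capitals mark the GC box GGGCGG.
Pcsk2: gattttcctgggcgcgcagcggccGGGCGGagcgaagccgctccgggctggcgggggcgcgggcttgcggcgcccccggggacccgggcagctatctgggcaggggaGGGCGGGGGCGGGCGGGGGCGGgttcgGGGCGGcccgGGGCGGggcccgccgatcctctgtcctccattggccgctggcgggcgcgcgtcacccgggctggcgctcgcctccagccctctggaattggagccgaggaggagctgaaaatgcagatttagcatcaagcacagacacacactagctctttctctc
The window holds 7 copies of GGGCGG, more than any of the other 8 windows, and is 73.3% G and C. Of all windows, 33.1% hold GGGCGG on either strand.

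The log2 values of Pcsk2 were 8.07, 7.87, 7.70 and 7.14 in pheochromocytoma, against 8.12 and 7.55 in old wild type. Across the 8 hyperplasias the lowest, median and highest were 8.39, 8.85 and 9.28, against 9.02 and 9.05 in young wild type. Mutant and wild-type arrays of like age overlapped, while every array of the older groups lay below every array of the younger ones. The log2 difference from the age's own wild type was -0.14 ± 0.24 in pheochromocytoma (95% interval -0.65 to 0.37, adjusted p = 0.743) and -0.16 ± 0.22 in hyperplasia (95% interval -0.62 to 0.31, adjusted p = 0.733). Pcsk2 fell by 1.18 ± 0.17 log2 units, or 2.27-fold, in pheochromocytoma against hyperplasia (adjusted p = 3.85e-05). It fell by 1.20 ± 0.28 log2 units, or 2.30-fold, in old against young wild type (adjusted p = 0.00525).

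The gap between those changes, which equals the difference between the effects in tumour and hyperplasia, was 0.02 ± 0.32 log2 units (95% interval -0.67 to 0.70). The decrease in pheochromocytoma against hyperplasia passed under all 28 alternatives, at -1.34 to -0.997 log2 units. The smallest of these came without tumour replicate 4 (adjusted p = 0.000156). The wild-type decrease passed under 27 of 28. Without old wild-type pool 2 it was -0.91 (adjusted p = 0.0701). Tissue state and age cannot be told apart between tumour and hyperplasia, and the hexokinase difference moves with the same split of older and younger arrays. Of 10 chromaffin markers 4 fell (Slc6a2, Phox2a, Hand2 and Ddc) and 1 rose (Slc18a1) in pheochromocytoma against hyperplasia, where 2 of 6 endothelial markers rose. Markers of macrophages and leukocytes fell for 5 of 8 and those of fibroblasts and pericytes for 3 of 8 in the same comparison, and for 3 of 8 each in old against young wild type. Among all probe sets 20.3% fell and 20.4% rose in pheochromocytoma against hyperplasia. In old against young wild type 13.3% fell and 10.4% rose. The part of these markers and of the hexokinase difference in the result was not tested.

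**Figure D2:**
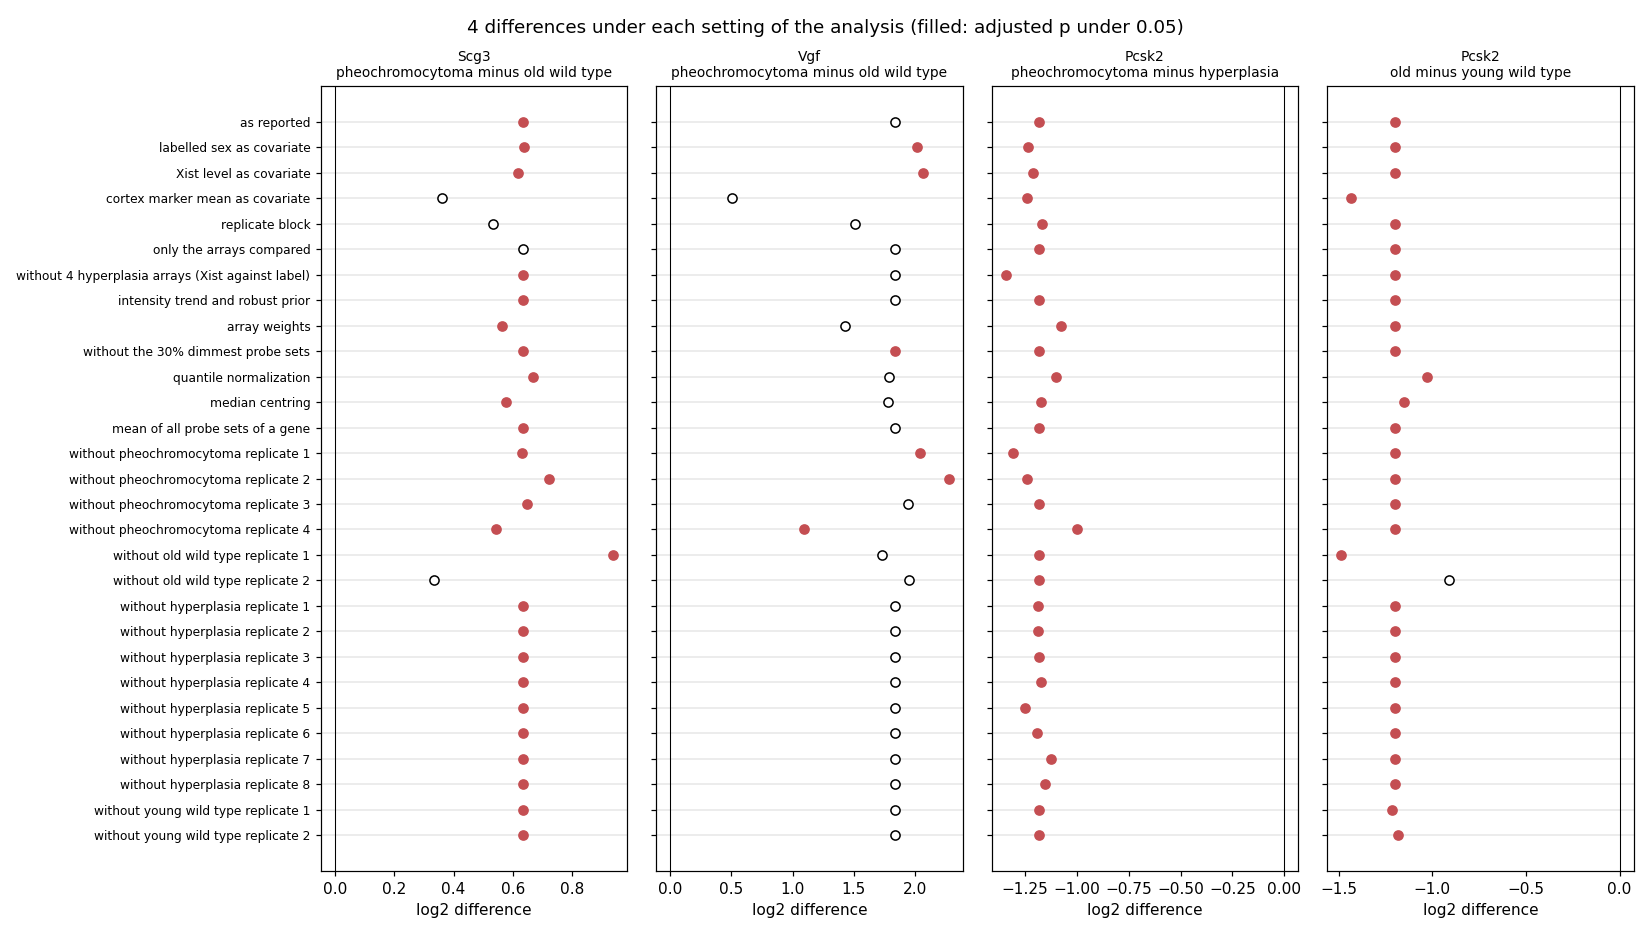
Log2 difference (x axis) of Scg3 and Vgf in pheochromocytoma minus old wild type, and of Pcsk2 in pheochromocytoma minus hyperplasia and in old minus young wild type, under each setting of the analysis (y axis). Filled points have an adjusted p under 0.05. Scg3 drops to 0.33 without old wild-type replicate 2, whereas every point of Pcsk2 in pheochromocytoma minus hyperplasia is filled.

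Scg5 codes for 7B2, the chaperone that proconvertase 2 needs to mature. Its log2 values were 12.48, 12.58, 12.60 and 12.85 in pheochromocytoma, against 12.53 and 12.02 in old wild type. In hyperplasia the lowest, median and highest were 12.36, 12.75 and 12.83, all below the 12.84 of both young wild-type pools. The log2 difference was 0.35 ± 0.16 in pheochromocytoma (adjusted p = 0.156) and -0.16 ± 0.15 in hyperplasia (adjusted p = 0.559). Unlike its partner Pcsk2, it did not pass in pheochromocytoma minus hyperplasia (-0.04 ± 0.11, adjusted p = 0.794), a contrast between the genes that was not itself tested. Scg5 fell by 0.56 ± 0.19 log2 units in old against young wild type (adjusted p = 0.0395). Without old wild-type pool 2 that log2 difference was -0.30 (adjusted p = 0.353), and without either young pool it did not pass.

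Cpe codes for carboxypeptidase E. Its log2 values were 13.26, 13.11, 13.32 and 13.39 in pheochromocytoma, against 13.37 and 13.00 in old wild type, and these groups overlapped. The 8 hyperplasias had a lowest, median and highest of 12.91, 13.17 and 13.32, against 13.54 and 13.52 in young wild type. All 8 hyperplasias lay below both pools. The log2 difference in hyperplasia was -0.38 ± 0.13 (95% interval -0.65 to -0.11) and missed the threshold (adjusted p = 0.0783). It passed under 1 of 28 alternatives, an intensity trend and a robust prior in the same fit (adjusted p = 0.0477). In pheochromocytoma it was 0.08 ± 0.14 (adjusted p = 0.726). The difference between the 2 effects was 0.46 ± 0.19 log2 units (adjusted p = 0.373).

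The bright probe set of Pam, the amidating enzyme, had log2 values of 12.28, 12.08, 12.21 and 12.32 in pheochromocytoma, against 12.18 and 11.65 in old wild type. Across the 8 hyperplasias the lowest, median and highest were 12.40, 12.49 and 12.76, against 12.42 and 12.32 in young wild type. All tumours lay below all hyperplasias. Pam fell by 0.30 ± 0.10 log2 units in pheochromocytoma against hyperplasia (adjusted p = 0.0196) and by 0.45 ± 0.16 in old against young wild type (adjusted p = 0.0465). The first passed under 23 of 28 alternatives and the second under 7 of 28, and without old wild-type pool 2 the second was -0.18. The log2 differences from the age's own wild type, 0.31 ± 0.14 in pheochromocytoma (adjusted p = 0.140) and 0.16 ± 0.12 in hyperplasia (adjusted p = 0.497), did not pass. The other 2 Pam probe sets lay at log2 values of 4.49 to 5.06 and 3.09 to 3.67. Those are near or below the first quartile of their arrays, 4.71 to 4.93, where signal over background was not shown, and neither passed in any comparison.

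Ptprn codes for IA-2, a transmembrane protein of the granule membrane. Its log2 values were 10.83, 10.70, 11.21 and 11.38 in pheochromocytoma, against 10.93 and 10.22 in old wild type. In hyperplasia the lowest, median and highest were 10.83, 11.03 and 11.25, against 11.09 and 10.71 in young wild type. The groups of each pair overlapped. The log2 difference was 0.45 ± 0.21 in pheochromocytoma (95% interval 0.01 to 0.89, adjusted p = 0.155) and 0.14 ± 0.19 in hyperplasia (95% interval -0.26 to 0.54, adjusted p = 0.713).

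**Figure D3:**
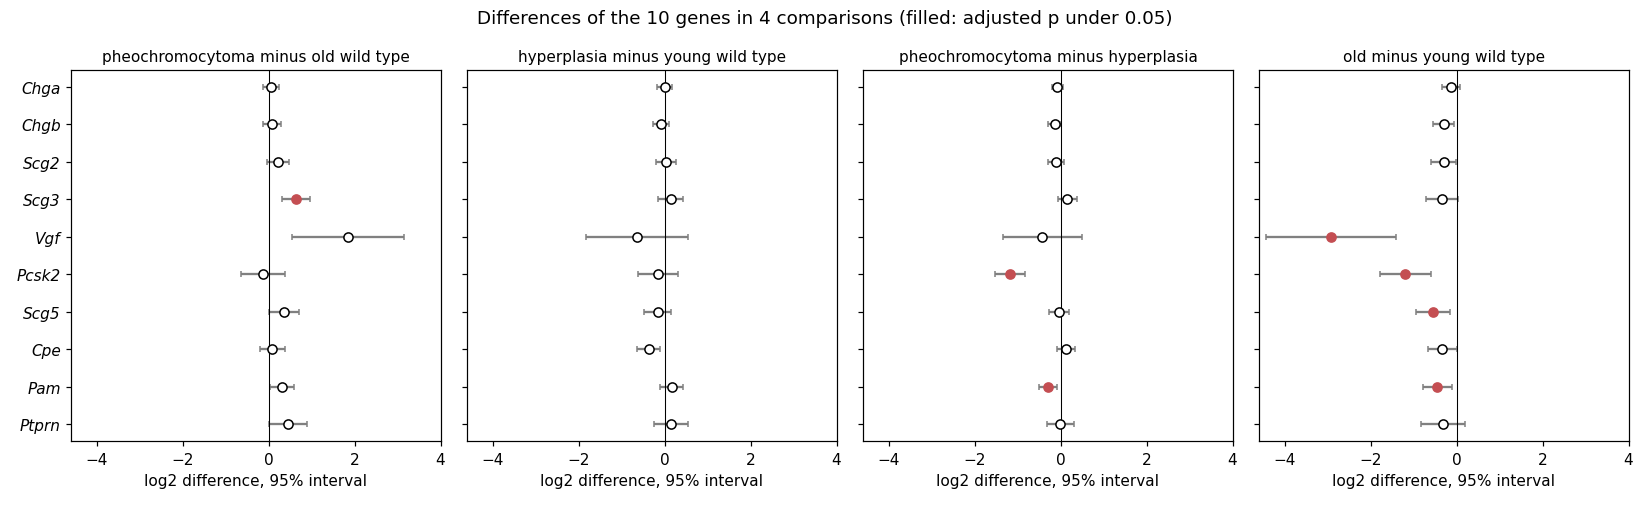
Log2 difference (x axis) with its 95% interval for the brightest probe set of each of the 10 genes (y axis) in 4 comparisons. Filled points have an adjusted p under 0.05. Scg3 is the 1 filled point in pheochromocytoma minus old wild type, none is filled in hyperplasia minus young wild type, and Vgf, Pcsk2, Scg5 and Pam are filled and negative in old minus young wild type.

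Across the 10 genes, 1 of 12 probe sets rose and 0 fell in pheochromocytoma against old wild type. Over all 31042 probe sets 8.31% rose and 5.95% fell, 14.3% together, so the share among these genes was near that of the whole array. The median log2 difference of the 10 genes was 0.26, beside -0.01 over all probe sets. The values were positive for 9 genes and negative for Pcsk2. These signs depended on single arrays, and old wild-type pool 2 was the lowest array for 7 of the 10 genes. With 1 array left out, the lowest log2 differences were -0.07 for Chga, -0.10 for Chgb, -0.05 for Scg2 and -0.10 for Cpe. Those of Scg3, Scg5, Vgf, Pam and Ptprn stayed above 0, at lowest values of 0.33, 0.10, 1.10, 0.04 and 0.10. An unadjusted p under 0.05 was found for 5 of the 10 genes and 29.6% of all probe sets. In hyperplasia against young wild type 0 of 12 probe sets passed limma's adjusted test, where 7.4% of all did (4.32% higher and 3.08% lower). Cpe alone, 1 of the 10 genes, had an unadjusted p under 0.05, as did 22.7% of all probe sets, and the median log2 difference was -0.05, beside -0.02 over all probe sets.

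The test of the difference between the effects in tumour and hyperplasia passed for 0 of 12 probe sets, where 0.0258% of all passed (0.0193% higher and 0.00644% lower). Vgf, Cpe, Scg3 and Scg5 had an unadjusted p under 0.05 there, 4 of 10 genes beside 11.1% of all probe sets. In pheochromocytoma against hyperplasia 2 of 12 probe sets fell (Pcsk2 and Pam), where 20.3% of all fell, and 0 rose, where 20.4% of all rose, 40.7% together. In old against young wild type 4 of 12 fell (Vgf, Pcsk2, Scg5 and Pam) and 0 rose, where 13.3% of all fell and 10.4% rose, 23.7% together. The median log2 difference there was -0.34, beside 0.00 over all probe sets, and all 10 values were negative. Old wild-type pool 2, the lowest array for 7 of the 10 genes, enters here too. With 1 array left out, the highest value was 0.04 for Ptprn, -0.02 for Chga, -0.04 for Scg2 and -0.04 for Scg3. All genes but Ptprn stayed negative. Chromaffin markers fell for 4 of 10 in the same comparison and rose for 0. The log2 differences of all 10 cortex markers were above 0, with a median of 0.52, and 0 of 10 passed. With the cortex marker mean added to the fit, 2 of the 12 probe sets passed, beside 6244 of all 31042. These comparisons share arrays, since each group enters more than 1 of them.

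**Figure D4:**
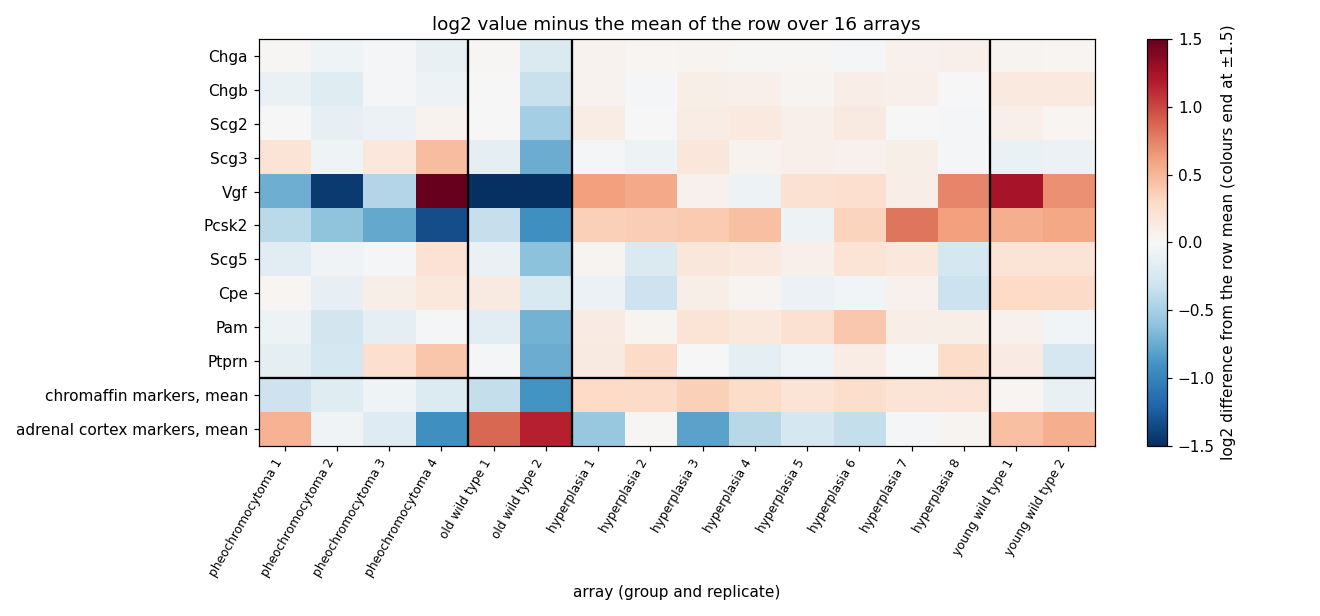
Log2 value minus the mean of the row over the 16 arrays (colour, ending at ±1.5) for the 10 genes and for the means of 10 chromaffin and 10 adrenal cortex markers (y axis), by array (x axis). Lines separate the groups and the marker means. Old wild-type replicate 2 is the lowest array for 7 of the 10 genes and has the highest cortex and the lowest chromaffin marker mean.

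Other processing enzymes and inhibitors, 15 of 16 listed genes measured, were mixed. In pheochromocytoma against old wild type 2 rose, 1 fell and 12 did not pass, with a median log2 difference of 0.16. Among all probe sets 8.31% rose and 5.95% fell, with a median of -0.01. Qpct, which forms the pyroglutamate end of some peptides, had a mean log2 value of 7.53 ± 0.26 in pheochromocytoma (SD, n = 4) and 6.32 ± 0.05 in old wild type (SD, n = 2), a log2 difference of 1.21 (adjusted p = 0.00249). Mbtps1, the site-1 protease, rose by 0.35 log2 units (adjusted p = 0.0199). Pcsk5, another convertase, fell by 1.88 log2 units, to 6.81 ± 0.30 in pheochromocytoma, against 8.68 ± 0.47 in old wild type (adjusted p = 0.00185).

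In hyperplasia against young wild type 2 of these 15 rose, 1 fell and 12 did not pass, with a median log2 difference of 0.01. Among all probe sets 4.32% rose and 3.08% fell, with a median of -0.02. Furin, the convertase of the trans-Golgi network, rose by 0.64 log2 units, to 8.51 ± 0.17 in hyperplasia (SD, n = 8), against 7.87 ± 0.10 in young wild type (adjusted p = 0.0034). Mbtps1 rose by 0.30 (adjusted p = 0.0392) and Pcsk5 fell by 1.08 log2 units (adjusted p = 0.0358). Pcsk5 and Mbtps1 thus passed in the same direction in both comparisons with wild type. The cortex marker mean was also lower in each mutant group than in its wild type, and its part in these changes was not tested. Between the older and the younger tissues, 4 of the 15 fell and 0 rose in pheochromocytoma against hyperplasia, and 3 fell and 0 rose in old against young wild type. The shares over all probe sets were 20.3% lower and 20.4% higher in the former, and 13.3% lower and 10.4% higher in the latter.

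Of 22 measured genes of granule membrane, sorting and biogenesis, 4 rose and 0 fell in pheochromocytoma against old wild type, with a median log2 difference of 0.20. The shares over all probe sets were 8.31% higher and 5.95% lower, with a median of -0.01. Slc18a1, the vesicular monoamine transporter of chromaffin granules, rose by 0.73 (adjusted p = 0.0223) and Cadps, which primes dense-core granules for release, by 0.72 log2 units (adjusted p = 0.0122). Rab3d, a small GTPase of secretory granules, rose by 0.62 (adjusted p = 0.00773) and Hid1, which acts in granule formation, also by 0.62 log2 units (adjusted p = 0.00626). Slc18a1 also stands in the chromaffin marker list. Its old wild-type pools had log2 values of 10.74 and 11.64, against 11.70 for the lowest tumour. How far the calls of the genes named from these lists rest on 1 pool was not tested. In hyperplasia 1 rose (Rab3d, by 0.61, adjusted p = 0.00802) and 1 fell (Sv2c, a vesicle glycoprotein, by 0.82, adjusted p = 0.00921), and Sv2c was dim, at log2 values of 4.13 to 5.47 in these groups. The shares over all probe sets in hyperplasia were 4.32% higher and 3.08% lower. In old against young wild type 6 of 22 fell and 0 rose, beside 13.3% and 10.4% of all probe sets. In pheochromocytoma against hyperplasia 2 rose and 4 fell, beside 20.4% and 20.3% of all probe sets.

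Of 21 measured genes of peptide precursors, the cargo on which these enzymes act, 2 rose and 3 fell in pheochromocytoma against old wild type, and 1 rose and 3 fell in hyperplasia against young wild type. The other 16 and 17 did not pass, and the median log2 differences were -0.08 and -0.11, beside -0.01 and -0.02 over all probe sets. Of all probe sets 8.31% rose and 5.95% fell in pheochromocytoma, and 4.32% rose and 3.08% fell in hyperplasia. Gal, the precursor of galanin, rose in both, by 3.27 log2 units in pheochromocytoma (adjusted p = 0.00063) and by 4.25 in hyperplasia (adjusted p = 4.62e-05). Tac3, the precursor of neurokinin B, rose in pheochromocytoma (adjusted p = 0.00678), with lowest, median and highest log2 values of 7.56, 8.20 and 11.95, against 4.54 and 4.62 in old wild type. Those pools lay below the first quartile, where signal over background was not shown, and 1 tumour stood far above the median, so the fitted log2 difference of 4.40 gives no exact size. Npy and Vip, the precursors of neuropeptide Y and vasoactive intestinal peptide, fell in pheochromocytoma by 1.37 and 1.83 log2 units (adjusted p = 0.00356 and 0.00601) and in hyperplasia by 1.32 and 1.90 (adjusted p = 0.00388 and 0.00421). Calca, the precursor of calcitonin and its gene-related peptide, fell by 1.08 log2 units in hyperplasia (adjusted p = 0.000782).

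The genes whose pattern was most like each member were found by Pearson's r among 7099 genes at or above the median mean level. The values describe 16 arrays that share group differences and cortex content. Over all arrays the closest were Rab3b for Chga (0.93), Ica1 for Chgb (0.93), Gng10 for Scg2 (0.90), Scyl3 for Scg3 (0.91), Bex4 for Scg5 (0.92) and Tm7sf3 for Vgf (0.91). For the other 4 they were Pierce2 for Pcsk2 (0.94), Atp6ap2 for Cpe (0.83), Cir1 for Pam (0.93) and Tgfb3 for Ptprn (0.89). After the group means were taken off, Scyl3 was again the closest gene for Scg3 (0.89). Th, the rate-limiting enzyme of catecholamine synthesis, was then the closest for Ptprn (0.93) and Pfkp, a phosphofructokinase, for Vgf (0.94). The others were Slc37a4 for Chga (0.92), Pcgf6 for Chgb (0.94), Zcchc18 for Scg2 (0.94) and Golm2 for Scg5 (0.93). Slc24a2 was closest for Pcsk2 (0.93), Atp5mk for Cpe (0.94) and Ip6k2 for Pam (0.85). Each r is the highest among 7099 genes, and no relation was tested.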

How the data were processed

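The authors deposited 1 table of log2 values, 1 per probe set and array. RMA is named per the submitters' processing notes, its version and the arrays normalized together are not given in the sources used here, and detection calls were not used here; the number of arrays limits the precision. RMA corrects background, normalizes quantiles and gives 1 summary per probe set, which compresses differences of dim and of very bright probe sets.

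No test used the 57 control probe sets. Of the 31042 others, 20826 had 1 symbol, 436 several and 9780 none; 20758 matched a rat gene table by Entrez identifier and 0 symbols differed. A gene was represented by its brightest probe set over the 16 arrays. Groups came from the labels. The model was limma's (version 3.58.1 under R 4.3.3; lmFit with contrasts and eBayes; 4 group levels, no covariate, 12 residual degrees of freedom, median prior 3.98), two-sided, with Benjamini-Hochberg adjustment. The fit was tested on simulated data. Members and lists were chosen with earlier results of these data known. From each pathway list, up to 4 passing genes with the largest change were named per comparison with wild type. Lists are given by counts and medians, without a test. Array numbers of different groups name no shared animal. Correlations of same-numbered arrays' deviations were -0.179 to 0.212. In a group of 2 arrays the deviations mirror each other, so numbers 1 and 2 of old and young wild type gave the same value, 0.212, by construction. The settings tried are named in the closing section.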

Additional observations from a re-analysis of the deposited data

How the results depend on the processing

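No difference of the 10 genes that passed the test changed sign under any of the 28 alternatives. The number of the 12 probe sets that passed in pheochromocytoma against old wild type (1) was 2 with labelled sex, 2 with the Xist level, 0 with the cortex marker mean, 0 with the replicate block, 0 with only the arrays compared and 2 without the 30% dimmest probe sets, and 0 to 5 when 1 array was left out. The 5 came without old wild-type pool 1 (Scg2, Scg3, Scg5, Pam and Ptprn) and the 0 without pool 2. In hyperplasia (0) it was 1 with an intensity trend and 0 to 0 with 1 array left out, and for the difference of effects (0) it was 0 to 1. In pheochromocytoma against hyperplasia (2) it was 1 with the replicate block, 4 with the trend, 5 with array weights, 1 with the mean of a gene's probe sets, and 1 to 3 with 1 array left out. In old against young wild type (4) it was 2 with the cortex marker mean, 2 with only the arrays compared, 2 without the 4 hyperplasias whose Xist level goes against the label, 2 with median centring, and 1 to 7 with 1 array left out. The cause was not tested. Quantile normalization and all other settings kept these counts within 1.5 times.

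Over all probe sets, 4425 passed in pheochromocytoma against old wild type, against 81 with the cortex marker mean, 1593 with the block, 1915 with only the arrays compared, 2407 genes with the mean of a gene's probe sets, and 596 to 4781 with 1 array left out. The 4425 were 2579 higher and 1846 lower. Median centring gave 1938 higher and 2416 lower. With labelled sex 4027 passed and with the Xist level 4488. Without the 30% dimmest probe sets it was 4359 of 21729. In hyperplasia 2296 passed, against 363 with the cortex marker mean, 556 with the block, 689 without those 4 hyperplasias, 1393 genes and 564 to 2687. For the difference of effects 8 passed, against 0 to 649 with 1 array left out, 2 with the cortex marker mean, 0 with the block, 1 with array weights, 1 without those 4 hyperplasias, 3 with median centring, 0 genes with the mean of a gene's probe sets and 14 with quantile normalization. In pheochromocytoma against hyperplasia 12631 passed, against 5563 genes, and in old against young wild type 7366, against 3770 with only the arrays compared, 3447 genes and 4500 to 7681. For an arm left with 1 pool the spread of the other groups was assumed. Only the arrays compared gives no value for the difference of effects. With the intensity trend 2314 passed in hyperplasia and 12633 in pheochromocytoma against hyperplasia. The latter comparison had 8997 with the block and 14545 with array weights. Old against young wild type had 6244 with the cortex marker mean, 6427 without those 4 hyperplasias and 7223 with median centring.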

Other observations

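Among the 8 hyperplasias, Pearson's r was computed for the 45 pairs of the 10 genes, with exact permutation tests over all 40320 orders. After Benjamini-Hochberg adjustment over the 45 pairs 5 passed by Pearson's r (adjusted p = 0.0475 each, exact permutation) and 0 by Spearman's rho. Chgb and Scg5 had r = 0.924 (exact permutation p = 0.00241) and rho = 0.929 (exact permutation p = 0.00223). Without the 2 arrays farthest from the Chgb median r was 0.879. In each pair below these 2 arrays were likewise chosen by the first-named gene alone, so extreme values of the other gene could remain. Vgf and Ptprn had r = 0.894 (rho = 0.857), and 0.899 without the 2 farthest arrays. Vgf and Cpe ran opposite, at r = -0.875 (rho = -0.881), and -0.931 without the 2 farthest. Within groups over all 16 arrays the r of that pair was 0.087. The r of Scg5 and Cpe was 0.949 (rho = 0.857) and that of Chgb and Cpe 0.886 (rho = 0.786), and without the 2 farthest arrays they were 0.669 and 0.519. These 8 arrays include 4 whose Xist level goes against the labelled sex, which leaves too few arrays for values within each kind, and their part in these relations was not tested. Within groups over the 16 arrays Scg5, Cpe and Vgf had r = -0.680, -0.538 and -0.533 with the cortex marker mean, whose part was not tested either; these r are descriptions.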
